A study of Felis catus with 6 samples.

Results

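Solute carriers are membrane proteins that move ions, nutrients, vitamins, metabolites and drugs across the plasma membrane and the membranes of mitochondria, lysosomes and the Golgi. They are numbered into families by sequence likeness (SLC1, SLC2 and onwards, with the organic anion transporters written SLCO), and a family often, but not always, carries one kind of substrate. In an inflamed mucosa they are known from phagocytes, which take metals out of engulfed microbes, from vessels, which clear prostaglandins, and from the epithelium, which takes up sugars and vitamins.

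The 46 solute carrier genes described here were chosen by their measured difference between lesion and healthy mucosa. They are all the symbols beginning with SLC and a digit, or with SLCO, among 1981 genes that differed at least 2-fold between the tissues. A symbol could be tied only to such genes, so solute carriers that differed less, and those in a further 328 rows not used here, are not described. Of 3897 tested identifiers at least 2-fold different, 1968 have no name, and any solute carriers among these are not described either. The 2-fold difference, its direction and every count of tissues that separate are therefore properties of the choice. No p-value between tissues is given for any of the 46 genes. Carriers with another kind of symbol, such as FLVCR2 of the SLC49 family, are not among the 46. Of the 46 genes, 44 had at least 1 FPKM (fragments per kilobase, a level corrected for transcript length and library size) in at least 3 of 6 libraries and were among the 13327 of 21529 Ensembl identifiers that entered a test. SLC39A5 and SLC6A2 did not.

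RNA was sequenced from 3 cats with feline chronic gingivostomatitis (FCGS), a severe chronic inflammation of the oral mucosa. Each cat, named Bart, Jerome or Sadie in the labels, gave 1 full-thickness biopsy of a lesion and 1 of adjacent mucosa called healthy, so every group is 3 libraries, and the healthy group is mucosa of diseased animals, not of healthy cats. No genotype, breed or treatment is given for these animals in the labels, their ages are not given there either, and the FCGS cats of the study were edentulous. The study states that its FCGS cats were given buprenorphine against pain when tissue was taken, but no immunosuppressive drugs or antibiotics. They tested negative for the feline viruses FIV and FeLV. The labels call the tissue gingival, while the design text places it lateral to the palatoglossal folds. In every sentence with 3 values below, the order is Bart, Jerome, Sadie. A difference is the log2 FPKM in the lesion minus that in the healthy mucosa of the same cat, with values under 1 FPKM raised to 1, and its error is the SD over the 3 cats. The tissues are said not to overlap where the 3 lesion values all lie above, or all below, the 3 healthy values.

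Libraries summed to between 1382122 and 1903773 FPKM, and no read totals accompany the values, so the depth behind a value is unknown. The biopsies differed in what they held. Skeletal muscle markers, 20 of 25 with a name, summed to 13.7, 38.1 and 2884 FPKM in healthy mucosa and 34.3, 6602 and 5946 FPKM in lesions, so that muscle was high in the lesions of Jerome and Sadie and in the healthy mucosa of Sadie. Macrophage and monocyte markers (9 of 14 named, led by C1QB and C1QC) summed to 297, 749 and 507 FPKM in healthy mucosa and 1665, 2194 and 2017 FPKM in lesions. The endothelial markers (11 of 13, led by VWF and PLVAP) summed to 480, 268 and 221 FPKM and then 2164, 957 and 898 FPKM, with Bart far above the other lesions. A marker has a name only if it differed at least 2-fold between the tissues. The direction of these sums between tissues is therefore not independent of that choice, and markers without a name are left out of them. In whole biopsies fewer cells of a type and less RNA per cell cannot be told apart. The part that cell makeup had in the solute carrier values was not tested.

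Of the 46 genes, 30 were higher and 16 were lower in lesions. The median difference was 1.77 for the genes that were higher (range 1.02 to 3.26) and -1.91 for those that were lower (-2.25 to -1.14), against a median of -0.07 over all tested identifiers. The lower side is cut off, since no identifier below -2.38 carries a name and 528 tested ones without a name lie below it. Names are missing elsewhere too, since 1968 tested identifiers at least 2-fold different have none. The split of 30 to 16, the medians of the higher and the lower genes and their ranges therefore hold only for the genes that could be named. In limma with Benjamini-Hochberg adjustment 15 of the 44 tested members passed as higher, where 5.31% of all identifiers did, and 5 passed as lower, where 6.61% did. With the cat as a block these counts were 25 (12.2% of all identifiers) and 10 (11.1%). The tissues did not overlap in 24 of the 44 as higher (16.7% of all identifiers) and in 10 as lower (21.9%), and the difference had one sign in every cat in 28 as higher (28.6%) and 15 as lower (34.6%). Nothing is read from these counts, since the same contrast chose the genes. The calls depended on which library was left out. Over all identifiers 707 passed as higher and 881 as lower, against 702 and 733 without the lesion library of Bart (14 and 5 solute carriers) and 1036 and 1100 without both libraries of Bart (15 and 12). They were 1 and 8 without the healthy library of Sadie and 0 and 1 without the lesion library of Sadie, and in both cases, and without the healthy library of Jerome, 0 solute carriers passed in either direction.

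The genes belong to 24 families. In 5 families members lay in both directions, namely SLC2, SLC5, SLC6, SLC16 and SLC35, while all 4 SLC39 genes, all 3 SLC38 genes and all 3 SLCO genes were higher and both SLC25 genes were lower. Grouped by substrate, metal ion carriers (7 of 7) and organic anion carriers (4 of 4) were higher. So were most monocarboxylate carriers (4 of 5) and amino acid and peptide carriers (5 of 7). Of the sugar and urate carriers 4 of 6 were lower, and of the vitamin, nucleobase and cofactor carriers 3 of 5. Among these 3 is SLC25A21, a carrier of oxodicarboxylates rather than of a vitamin, nucleobase or cofactor. The cut on the lower side and the other missing names apply to these family and group counts too, so they hold only for the genes that could be named. Mean levels over the 6 libraries ran from 1.39 to 76.5 FPKM. Only 16 of the 46 lay above the median of 12.7 FPKM over tested identifiers.

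**Figure D1:**
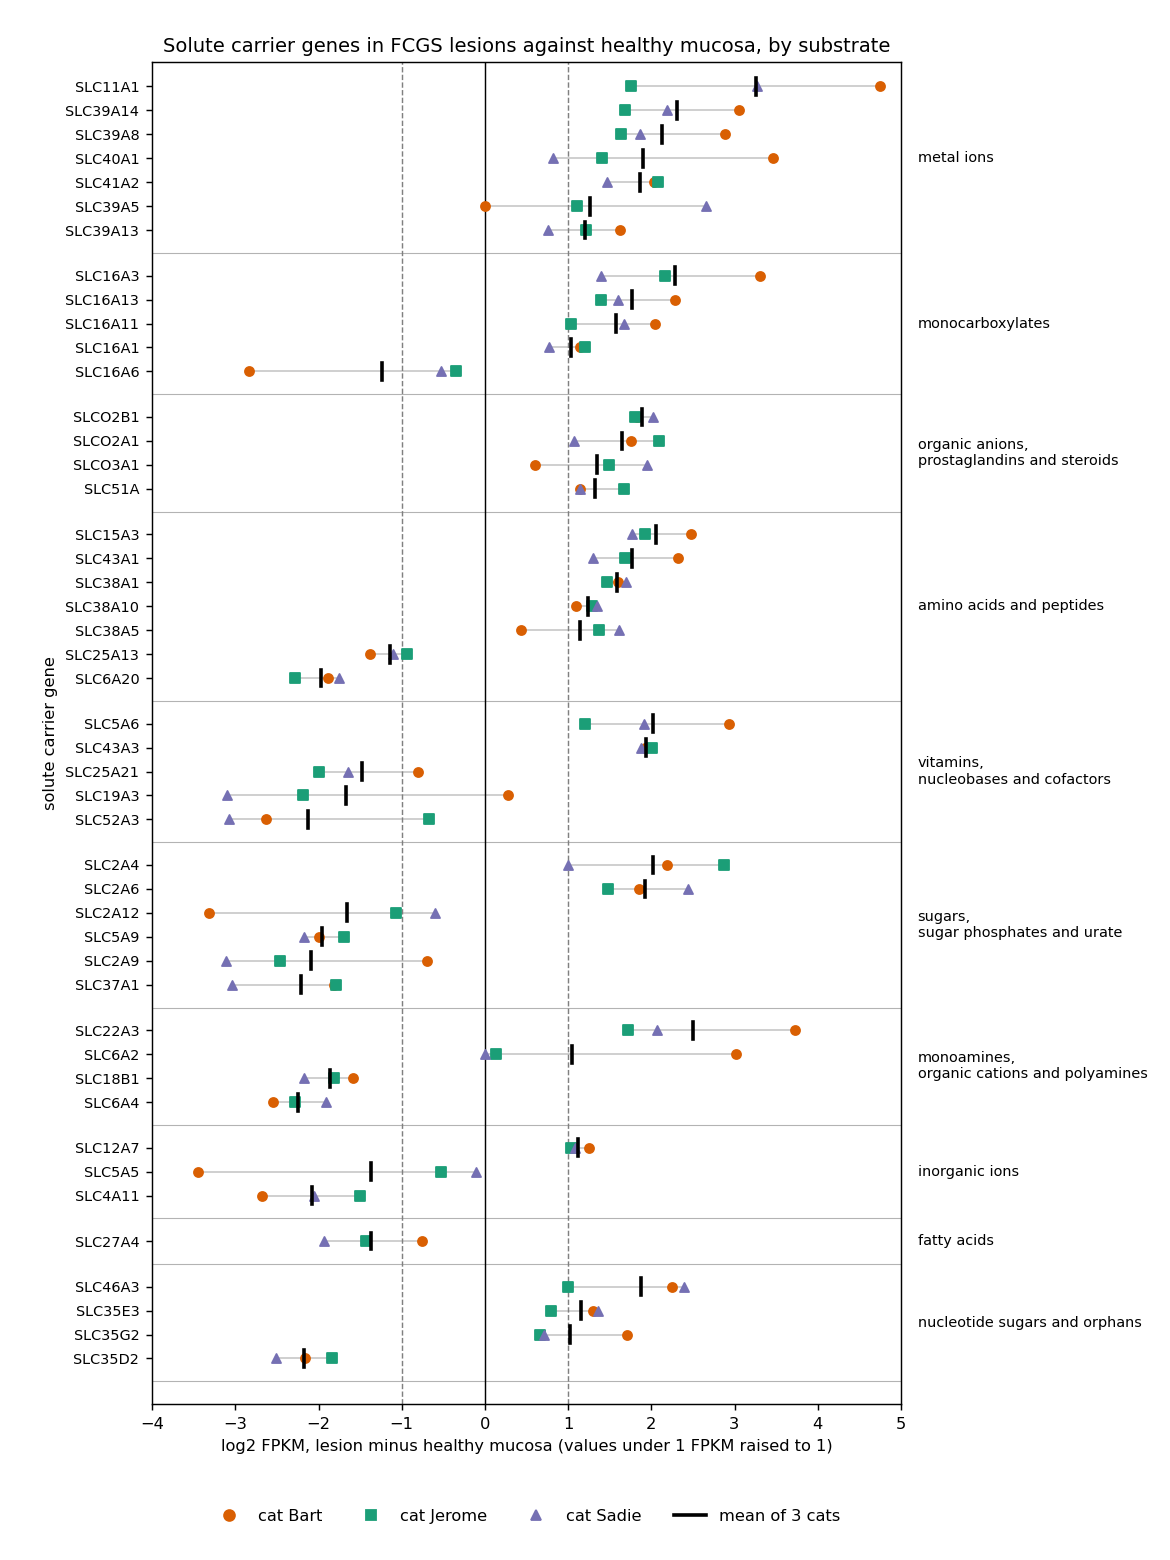
Log2 FPKM in the lesion minus that in healthy mucosa (x axis) for each of the 46 solute carrier genes (y axis), grouped by substrate, with 1 point for each of the 3 cats and a bar at their mean. The means of all 7 metal ion carriers lie to the right of 0, from 1.20 to 3.26, while the sugar and urate carriers split, 2 to the right and 4 to the left.

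Metal ion carriers among the 46 genes were all higher in lesions, with a median difference of 1.90. The largest difference of the 46 was that of SLC11A1. It encodes the phagosomal divalent metal pump of macrophages and neutrophils that draws iron and manganese away from microbes. SLC11A1 stood at 0.818, 3.92 and 0.500 FPKM in healthy mucosa and at 27.0, 13.3 and 9.64 FPKM in lesions. Each lesion lay above every healthy sample, and the difference was 3.26 ± 1.50 (n = 3), which is 9.58-fold. Since the healthy values of Bart and Sadie lie under the floor of 1 FPKM, their differences of 4.75 and 3.27 understate the ratio of the values. CSF3R, the receptor of the neutrophil growth factor, was at 11.3, 11.8 and 0.276 FPKM in healthy mucosa and at 291, 86.9 and 39.2 FPKM in lesions, so it too was highest in the lesion of Bart. It is 1 of 3 named neutrophil markers of 8. The most abundant, S100A8, which squamous epithelium also makes, went the other way, with 41366, 25489.7 and 5724 FPKM in healthy mucosa and 6832, 16029.5 and 1962 FPKM in lesions, so that the summed list was lower in the lesion of each cat. The third, CAMP, had means of 1.61 ± 0.94 and 9.50 ± 5.97 FPKM. The share of neutrophils and macrophages in the SLC11A1 values was not tested.

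A pair of closely related carriers that bring zinc, manganese and non-transferrin iron into the cell followed. SLC39A14 was at 9.39, 8.11 and 5.73 FPKM in healthy mucosa and at 78.3, 26.1 and 26.0 FPKM in lesions, a difference of 2.31 ± 0.69. SLC39A8 was at 8.46, 6.82 and 7.61 FPKM against 62.7, 21.2 and 27.8 FPKM, a difference of 2.13 ± 0.67. Both were narrow among the healthy samples and did not overlap between tissues, and in both the lesion of Bart was more than 2-fold above the other lesions. SLC40A1, ferroportin, the only known cellular iron exporter, rested on 1 cat to a greater degree. Its healthy levels were 6.42, 1.71 and 3.54 FPKM and its lesion levels 70.8, 4.54 and 6.24 FPKM. The lesions of Jerome and Sadie both lay below the healthy mucosa of Bart, so the tissues overlapped, and the difference of 1.90 ± 1.39 was 1.11 without Bart.

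The remaining metal carriers were lower in level. SLC41A2, a magnesium carrier, ran from 0.725 to 3.03 FPKM in healthy mucosa and from 4.09 to 8.35 FPKM in lesions, with a steady difference of 1.86 ± 0.34. The zinc carrier SLC39A13 of the secretory pathway had a mean of 5.20 ± 1.26 FPKM (SD, n = 3) in healthy mucosa and 12.1 ± 3.91 FPKM in lesions. The zinc importer SLC39A5 reached 1 FPKM only in the lesions of Jerome (2.16) and Sadie (6.33), and its difference of 1.26 ± 1.34 was 0.56 without Sadie. In the lesion of Sadie the salivary gland markers, 4 of 10 named, summed to 253 FPKM. The sum was 79.9 FPKM in the lesion of Jerome and at most 15.4 FPKM in the other libraries. The lesion of Jerome held mostly the keratin KRT19 (72.8 FPKM), with KRT7 at 6.83, PIGR at 0.219 and MUC5B at 0.049 FPKM. In the lesion of Sadie these were at 122, 54.1, 68.2 and 8.71 FPKM. The part of gland in the SLC39A5 values was not tested.

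**Figure D2:**
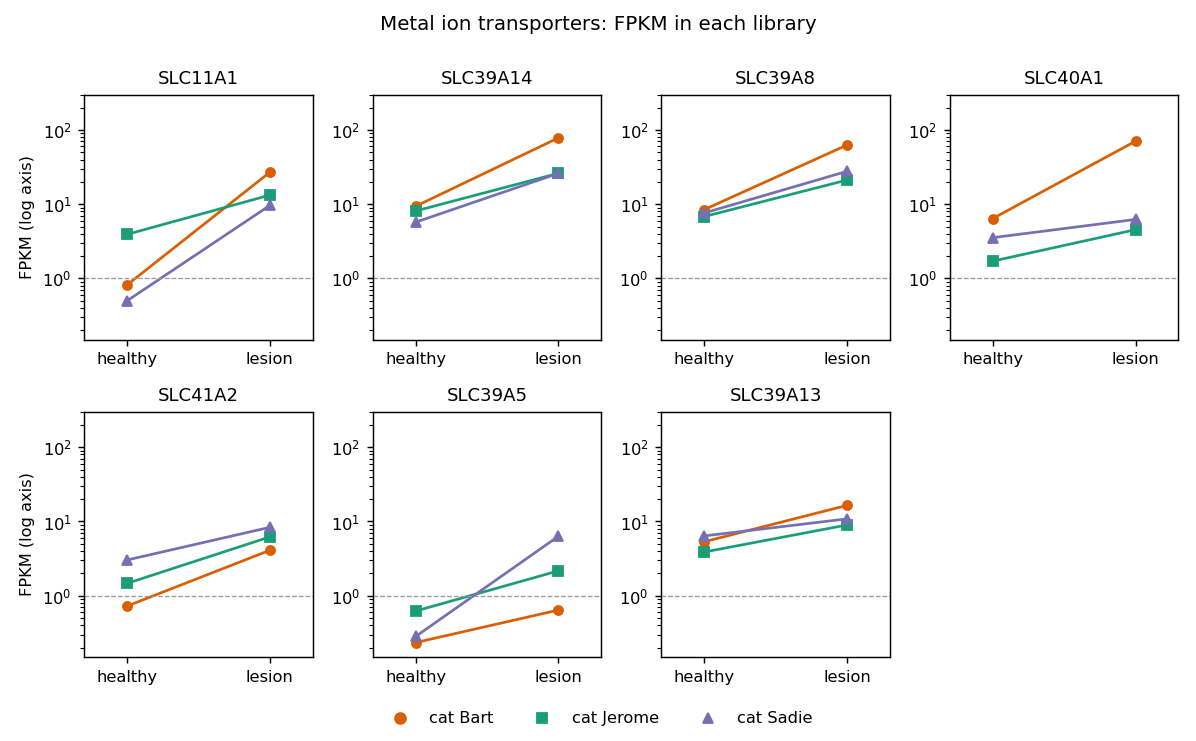
FPKM on a log axis in healthy mucosa and lesion for the 7 metal ion carriers, 1 panel a gene, with a line joining the 2 libraries of each cat and a dashed line at the floor of 1 FPKM. Every line slopes upward or, for SLC39A5 of Bart, stays under the floor (0.234 to 0.641 FPKM), and SLC40A1 of Bart ends at 70.8 FPKM, far above the other lesions.

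Other genes of iron and metal handling carried a name in 4 of 33 cases, and none of the 4 passed limma after adjustment, although all 4 had an unadjusted p under 0.05. Since a pathway gene has a name only if it differed at least 2-fold, its p-value is not independent of that choice here and below. LTF, the iron-binding lactoferrin of neutrophil granules and gland secretions, had a log2 difference of 3.09 (limma, adjusted p = 0.072). FLVCR2, a carrier of the SLC49 family, was at -2.03 (limma, adjusted p = 0.068), and CP, the ferroxidase that works with ferroportin, at 1.90 (limma, adjusted p = 0.15). STEAP3, an iron reductase of endosomes, had a difference of 1.50 with limma's adjusted p = 0.076, which became 0.024 with the cat as a block.

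Monocarboxylate carriers of the SLC16 family, which move lactate, pyruvate and ketone bodies, were higher in 4 of 5 cases. SLC16A3, the lactate exporter of glycolytic cells, was at 5.05, 6.78 and 9.85 FPKM in healthy mucosa and at 50.0, 30.5 and 25.9 FPKM in lesions. The cat with the lowest healthy level, Bart, had the highest lesion level, and the difference was 2.29 ± 0.96, or 4.89-fold. SLC16A13 had the highest level of the 5 genes in every library, with 16.1, 36.4 and 28.9 FPKM against 78.7, 95.4 and 87.8 FPKM in lesions (1.76 ± 0.47). Its neighbour SLC16A11 was at 3.55, 3.55 and 3.39 FPKM and then 14.6, 7.27 and 10.8 FPKM (1.58 ± 0.51). The pair lie next to each other in the cat RefSeq annotation with 0 protein-coding genes between them, and both were at least 2-fold higher in each cat.

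SLC16A1, the widely expressed lactate carrier, differed by 1.04 ± 0.23, close to the 2-fold limit. It ranged from 1.75 to 5.22 FPKM in healthy mucosa and from 3.22 to 11.5 FPKM in lesions, and the tissues overlapped because Bart was high in both. SLC16A6, a carrier of ketone bodies and taurine, was the member of the family with lower levels in lesions. It was at 13.2, 5.99 and 9.29 FPKM in healthy mucosa and at 1.86, 4.70 and 6.44 FPKM in lesions. The difference was -2.83 in Bart but -0.35 in Jerome and -0.53 in Sadie, and without Bart it was -0.44.

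Of 39 other genes of glycolysis and lactate handling, 11 had a name. EMB, which encodes embigin, a partner protein that brings SLC16 carriers to the membrane, rose by 2.06 (limma, adjusted p = 0.048), a call that was lost with the cat as a block (limma, adjusted p = 0.056). PDK3, a kinase that holds back pyruvate entry into mitochondria, fell by 1.85 (limma, adjusted p = 0.019). PFKFB4, which sets fructose 2,6-bisphosphate, was at -1.94 (limma, adjusted p = 0.065, and 0.024 with the cat as a block). The muscle enolase ENO3 had a difference of 2.53 (limma, adjusted p = 0.40), and its FPKM followed the muscle markers, at 253 in healthy mucosa from Sadie, 463 and 459 in lesions from Jerome and Sadie and at most 15.8 elsewhere. In all 1 of the 11 rose and 2 fell (2 and 5 with the cat as a block), the other being the glycolytic enolase ENO1 (limma, adjusted p = 0.028).

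Sugar carriers moved both ways. The facilitative glucose carriers SLC2A4 and SLC2A6 were higher in lesions, and the urate and sugar carriers SLC2A9, SLC2A12, SLC5A9 and SLC37A1 were lower. SLC2A4, the insulin-responsive glucose carrier of muscle and fat, was at 1.10, 0.492 and 4.21 FPKM in healthy mucosa and at 5.03, 7.36 and 8.38 FPKM in lesions (2.02 ± 0.95). Its highest healthy value was that of the muscle-rich sample of Sadie. The muscle-poor lesion of Bart lay above that value, at 5.03 against 4.21 FPKM. The muscle marker CKM was at 0.528, 1.33 and 716 FPKM in healthy mucosa and at 0.937, 1234 and 1041 FPKM in lesions. The part of muscle in the SLC2A4 values was not tested. SLC2A6, a glucose carrier of leukocyte lysosomes, ranged from 4.88 to 16.6 FPKM in healthy mucosa and from 23.5 to 46.4 FPKM in lesions (1.92 ± 0.48).

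SLC37A1, a glucose-6-phosphate carrier of the endoplasmic reticulum, was at 9.51, 44.3 and 65.0 FPKM in healthy mucosa and at 2.71, 12.8 and 7.93 FPKM in lesions (-2.21 ± 0.71). It was lower in each cat by at least 1.79, yet the tissues overlapped, since the healthy mucosa of Bart lay below the lesion of Jerome. SLC5A9, a sodium-coupled mannose carrier, had the same shape, with 4.87, 30.2 and 24.0 FPKM and then 1.22, 9.35 and 5.31 FPKM (-1.95 ± 0.24). Over both tissues the mean log2 level of the cats ran from 2.34 to 4.57 for SLC37A1 and from 1.29 to 4.07 for SLC5A9, so the cats lay as far apart as the tissues.

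SLC2A9, a urate carrier, was at 7.91, 22.2 and 28.0 FPKM in healthy mucosa and at 4.89, 4.03 and 3.25 FPKM in lesions (-2.09 ± 1.25). The lesions were narrow and the healthy samples wide, so the difference ran from -0.69 in Bart to -3.11 in Sadie. SLC2A12, a glucose carrier, ran from 1.96 to 17.1 FPKM in healthy mucosa and from 1.30 to 2.15 FPKM in lesions. Its difference of -1.66 ± 1.45 was -0.83 without Bart.

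**Figure D3:**
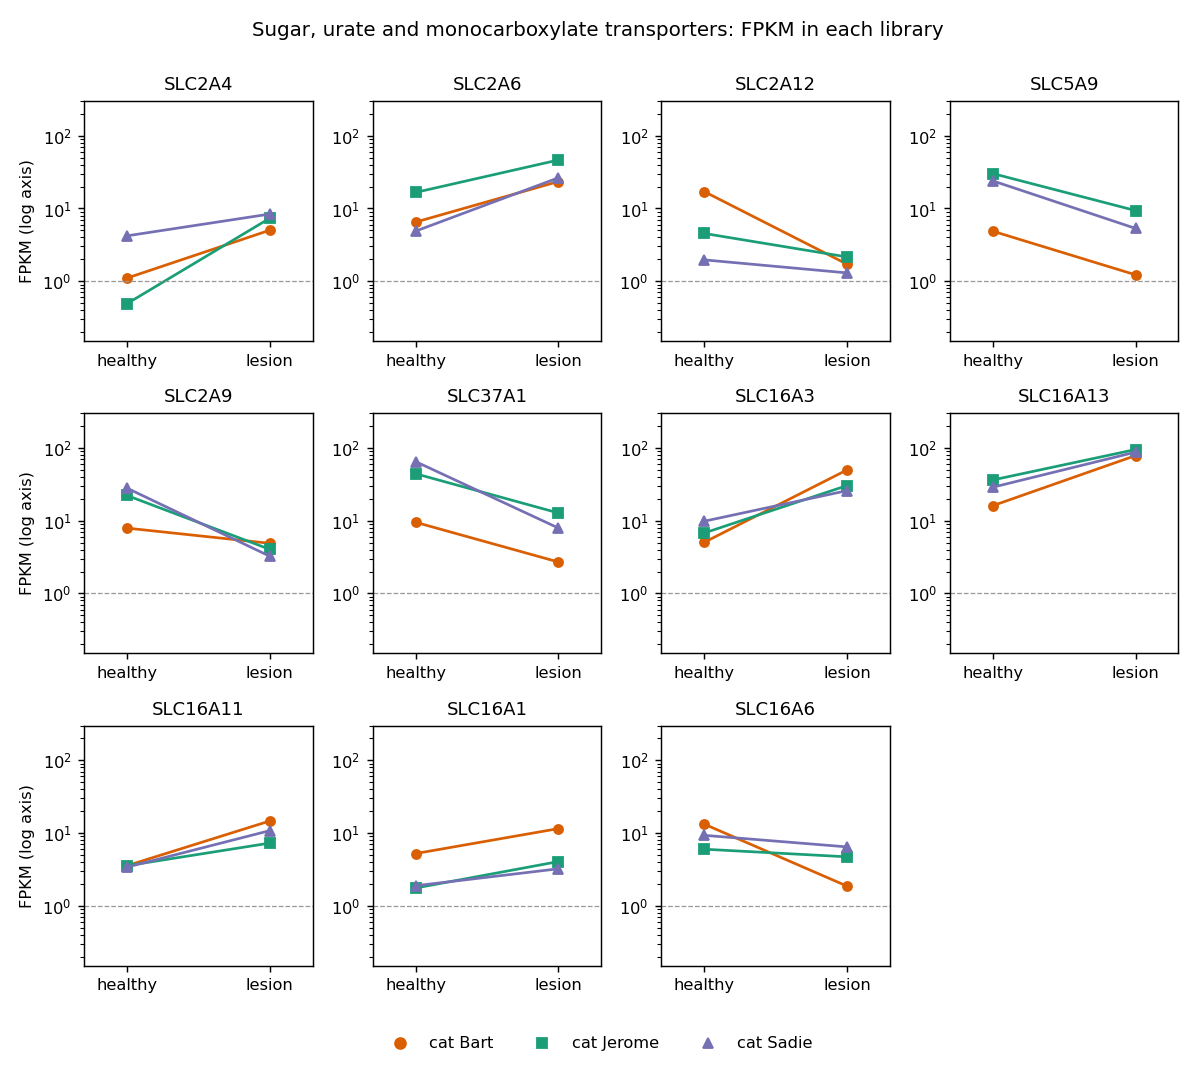
FPKM on a log axis in healthy mucosa and lesion for the sugar, sugar phosphate and urate carriers and the monocarboxylate carriers, with a line for each cat and a dashed line at 1 FPKM. Lines of SLC37A1 and SLC5A9 run downward side by side with Bart lowest in both tissues (9.51 and 2.71 FPKM for SLC37A1), while SLC2A9 converges from between 7.91 and 28.0 FPKM to between 3.25 and 4.89 FPKM.

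Of the 7 amino acid and peptide carriers 5 were higher and 2 lower in lesions, with differences from -1.97 to 2.06. SLC15A3, which exports histidine and small peptides from lysosomes of immune cells, was at 12.8, 29.1 and 24.1 FPKM in healthy mucosa and at 71.4, 110.7 and 81.7 FPKM in lesions (2.06 ± 0.37). SLC43A1, a carrier of large neutral amino acids, was at 2.94, 5.68 and 8.16 FPKM and then 14.7, 18.3 and 20.1 FPKM (1.77 ± 0.51). SLC38A1, a glutamine carrier, was at 1.97, 1.52 and 0.818 FPKM against 5.99, 4.20 and 3.25 FPKM, with a difference between 1.46 and 1.70 in each cat.

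SLC38A10, of the same family, was steady within each tissue, with 36.4 ± 1.11 FPKM in healthy mucosa and 86.4 ± 8.32 FPKM in lesions (1.24 ± 0.13). SLC38A5, a further glutamine carrier, had nearly the same level in all healthy samples (5.08 ± 0.15 FPKM) and 11.9 ± 4.57 FPKM in lesions, with a difference of only 0.44 in Bart. On the lower side stood SLC6A20, a proline carrier of epithelia, at 3.70, 9.76 and 8.70 FPKM in healthy mucosa. In lesions it was listed at 0 in Bart, the only 0 among the 276 values, and at 2.0 and 2.58 FPKM in Jerome and Sadie. Its difference of -1.97 ± 0.28 takes the listed 0 as 1 FPKM. SLC25A13, the mitochondrial aspartate and glutamate carrier, had a mean of 13.9 ± 0.91 FPKM in healthy mucosa and 6.30 ± 0.59 FPKM in lesions (-1.14 ± 0.23), the smallest difference of the genes that were lower.

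All 5 of the 28 amino acid metabolism genes that had a name had an unadjusted p under 0.05, and 2 rose and 2 fell after adjustment. IDO1, the interferon-induced enzyme that breaks down tryptophan, rose by 3.28 (limma, adjusted p = 0.029), and PYCR1, the last step of proline synthesis, by 2.24 (limma, adjusted p = 0.030). OAT, ornithine aminotransferase, fell by 1.78 (limma, adjusted p = 0.019). PHGDH, the first enzyme of serine synthesis, was at -1.63 (limma, adjusted p = 0.14), and the other gene that fell was GLUL, glutamine synthetase (limma, adjusted p = 0.030).

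Vitamin, nucleobase and cofactor carriers were higher in 2 and lower in 3 cases, with the oxodicarboxylate carrier SLC25A21 counted among the 3. SLC5A6, the sodium-coupled carrier of biotin and pantothenate, was at 16.5, 28.1 and 14.1 FPKM in healthy mucosa and at 126.3, 64.7 and 53.2 FPKM in lesions (2.02 ± 0.87). SLC43A3, a purine nucleobase carrier, was at 5.44, 7.99 and 9.07 FPKM against 20.7, 32.0 and 33.3 FPKM. Its difference was the most even of all 46 genes, 1.94 ± 0.06, and it lies 1 protein-coding gene away from SLC43A1 in the cat annotation.

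The carriers of riboflavin and thiamine were lower, by amounts that differed between cats. SLC52A3, the epithelial riboflavin carrier, was at 16.9, 19.8 and 45.6 FPKM in healthy mucosa and at 2.73, 12.4 and 5.41 FPKM in lesions, a difference of -2.63, -0.67 and -3.08. SLC19A3, a thiamine carrier, was the only one of the 46 genes whose FPKM moved in different directions in the cats. It was at 2.08, 4.54 and 8.57 FPKM in healthy mucosa and at 2.52, 0.668 and 0.322 FPKM in lesions, so that Bart differed by 0.28 where Jerome and Sadie differed by -2.18 and -3.10. SLC25A21, a mitochondrial oxodicarboxylate carrier, ranged from 1.74 to 4.53 FPKM in healthy mucosa and from 0.865 to 1.13 FPKM in lesions (-1.48 ± 0.62).

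**Figure D4:**
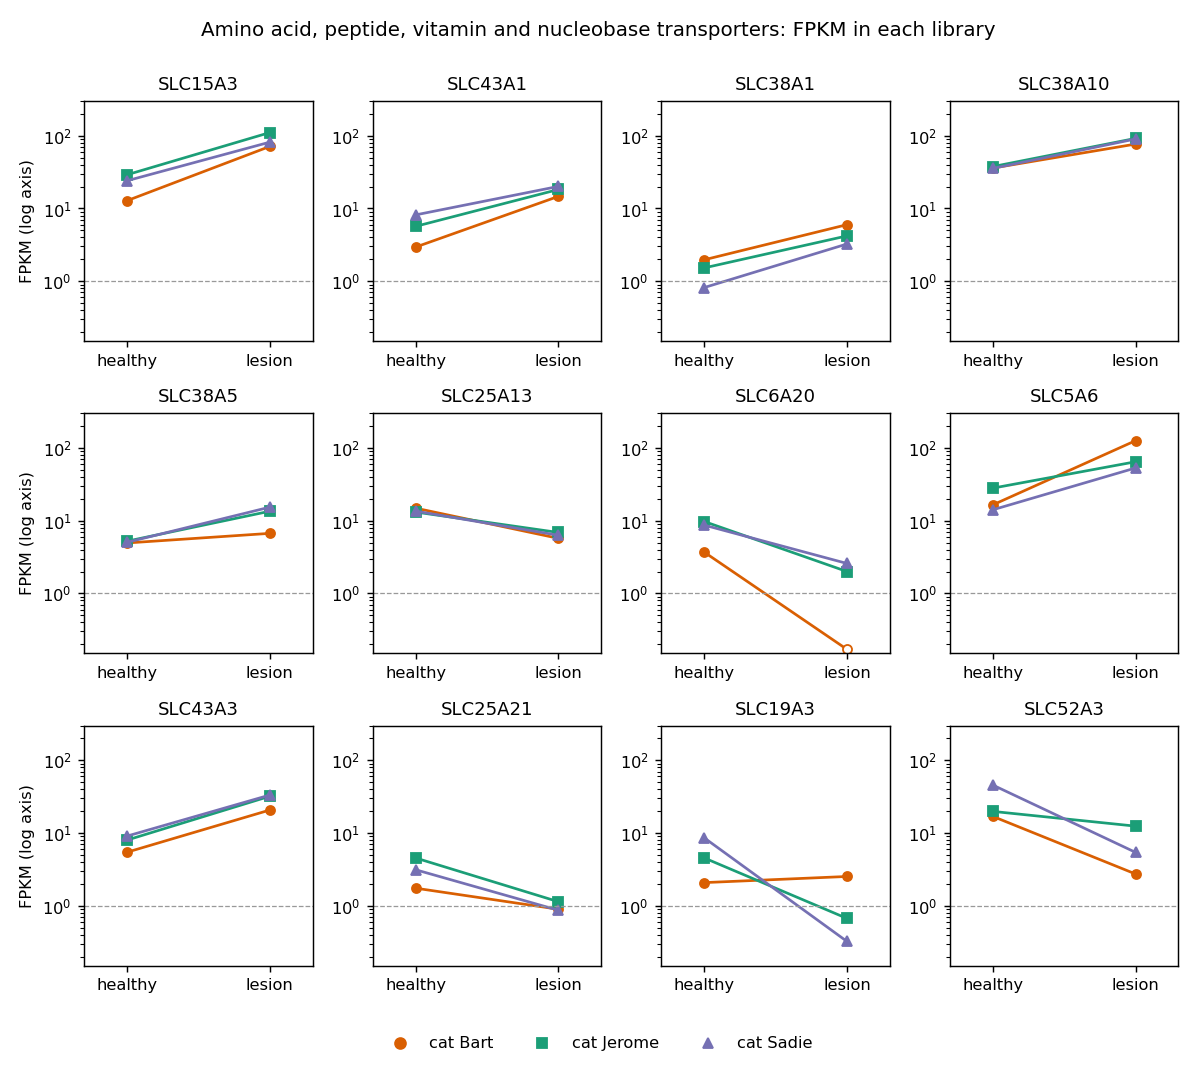
FPKM on a log axis in healthy mucosa and lesion for the amino acid, peptide, vitamin, nucleobase and cofactor carriers, with a line for each cat, a dashed line at 1 FPKM and an open point at the foot of the axis for a value listed at 0. The lines of SLC43A3 run in parallel, those of SLC19A3 cross because Bart goes from 2.08 to 2.52 FPKM, and SLC6A20 of Bart ends at the listed 0.

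Among enzymes that use these vitamins 3 of 18 had a name, and all 3 bind biotin. ACACB, the acetyl-CoA carboxylase of mitochondria, rose by 1.69 (limma, adjusted p = 0.025). ACACA, its cytosolic form for fatty acid synthesis, was at -2.32 (limma, adjusted p = 0.063, and 0.022 with the cat as a block), and PC, pyruvate carboxylase, at -1.51 (limma, adjusted p = 0.054).

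Organic anion carriers with a name were higher in all 4 cases, with differences from 1.32 to 1.89. SLCO2B1, a steroid conjugate carrier found in macrophages and vessels, was at 2.93, 4.69 and 3.64 FPKM in healthy mucosa and at 10.5, 16.4 and 14.8 FPKM in lesions, a difference of 1.89 ± 0.11 that was nearly equal in the cats. SLCO2A1, the prostaglandin carrier of endothelium that takes prostaglandins up for breakdown, was the most abundant of the 46 genes. It was at 58.9, 21.4 and 28.1 FPKM against 199.8, 91.6 and 59.3 FPKM (1.64 ± 0.52), and the lesion of Sadie barely cleared the healthy mucosa of Bart. Bart also had the highest endothelial marker sum in either tissue, and its part in the SLCO2A1 values was not tested.

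SLCO3A1, a further prostaglandin and steroid carrier, had the opposite order of cats in lesions, with 14.6, 17.2 and 17.5 FPKM in healthy mucosa and 22.1, 48.4 and 67.8 FPKM in lesions. Its difference was only 0.60 in Bart, against 1.49 in Jerome and 1.95 in Sadie. SLC51A, a subunit of the steroid and bile acid exporter, was at 2.34, 0.797 and 0.583 FPKM against 5.17, 3.18 and 2.21 FPKM (1.32 ± 0.30), and the tissues overlapped by 1 library. Of the prostaglandin pathway 4 of 23 genes had a name, and 2 of the 3 that could be tested rose. These were the thromboxane receptor TBXA2R, with a difference of 2.32 (limma, adjusted p = 0.019), and the thromboxane synthase TBXAS1, with 1.80 (limma, adjusted p = 0.044). The prostaglandin E receptor PTGER4 had 1.08 (limma, adjusted p = 0.096), and the prostaglandin F receptor PTGFR reached 1 FPKM only in the lesion of Bart, at 12.2 FPKM.

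The carriers of monoamines, organic cations and polyamines split evenly. SLC22A3, a low-affinity carrier of monoamines and organic cations, was at 2.08, 1.13 and 2.32 FPKM in healthy mucosa and at 27.4, 3.72 and 9.72 FPKM in lesions (2.50 ± 1.07), the second largest difference of the set. SLC6A2, the noradrenaline carrier of sympathetic nerves, was at 0.969, 0.028 and 0.171 FPKM and then 8.09, 1.10 and 0.903 FPKM. Its membership rests on Bart, since with the floor of 1 FPKM the difference was 3.02 there, 0.14 in Jerome and 0.00 in Sadie. All healthy values and the lesion value of Sadie lie under that floor, so the differences understate the ratio of the values.

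SLC6A4, the serotonin carrier, had the largest difference downward among the solute carriers with a name (-2.25 ± 0.32, 4.75-fold lower), a rank limited by the lack of names below -2.38. It was at 20.5, 22.5 and 14.1 FPKM in healthy mucosa and at 3.52, 4.62 and 3.73 FPKM in lesions, and the lowest healthy value was over 3 times the highest lesion value. SLC18B1, a vesicular polyamine carrier, was at 8.80, 11.6 and 8.65 FPKM against 2.92, 3.31 and 1.91 FPKM (-1.86 ± 0.30). Of 17 enzymes of monoamine and polyamine turnover only MAOA, a monoamine oxidase, had a name, with a difference of 1.18 (limma, adjusted p = 0.17).

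Carriers of inorganic ions were SLC12A7, SLC4A11 and SLC5A5. SLC12A7, a potassium and chloride cotransporter, was at 15.6, 15.5 and 13.2 FPKM in healthy mucosa and at 37.1, 31.7 and 27.8 FPKM in lesions (1.12 ± 0.12). SLC4A11, a proton carrier of the bicarbonate family, was at 11.2, 12.1 and 10.4 FPKM against 1.75, 4.25 and 2.49 FPKM (-2.08 ± 0.59). Both separated the tissues with little spread among the healthy samples. SLC5A5, the sodium and iodide symporter, did not. It was at 19.1, 16.6 and 8.85 FPKM in healthy mucosa and at 1.75, 11.5 and 8.19 FPKM in lesions, and its difference of -3.45 in Bart stood against -0.53 in Jerome and -0.11 in Sadie.

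The remaining 5 genes carry fatty acids or nucleotide sugars or have no settled substrate. SLC35D2, a nucleotide sugar carrier of the Golgi, was at 19.9, 25.8 and 39.8 FPKM in healthy mucosa and at 4.45, 7.20 and 6.98 FPKM in lesions (-2.17 ± 0.33). SLC27A4, a fatty acid transport protein of epidermis and gut, was at 8.10, 16.4 and 19.8 FPKM against 4.79, 6.13 and 5.20 FPKM (-1.37 ± 0.59). SLC46A3, a lysosomal membrane carrier, was at 2.0, 3.56 and 2.01 FPKM and then 9.52, 7.13 and 10.6 FPKM (1.88 ± 0.77).

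Of these, SLC35D2 was the most clearly separated, while the orphan carriers SLC35E3 and SLC35G2 lay near the floor. SLC35E3 was at 2.48, 1.30 and 0.398 FPKM in healthy mucosa and at 6.11, 2.26 and 2.57 FPKM in lesions (1.15 ± 0.31), with overlap. SLC35G2, the gene closest to the 2-fold limit, was at 1.02, 0.205 and 0.530 FPKM and then 3.34, 1.58 and 1.63 FPKM (1.02 ± 0.59). The next nearest to the limit were SLC16A1 (1.04) and SLC6A2 (1.05) among the higher and SLC25A13 (-1.14) among the lower genes, and no gene just outside the limit carries a name.

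The cats did not contribute equally. The median size of the difference over the 46 genes in Bart, Jerome and Sadie was 1.96, 1.50 and 1.73, against 0.61, 0.54 and 0.61 over all tested identifiers. The highest value lay in the lesion of Bart in 17 of the 30 genes that were higher (56.7%), against 53.4% of the 2257 identifiers at least 2-fold higher. The lowest lay in that lesion in 11 of the 16 that were lower (68.8%), against 61.0% of the 1640 identifiers at least 2-fold lower. Both shares of solute carriers are thus near those of other identifiers of the same size of difference.

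A difference of at least 2-fold in the direction of the mean was seen in 39 genes in Bart, 39 in Jerome and 37 in Sadie, and in every cat in 20 of the higher and 7 of the lower genes. Without Bart, 7 genes were under 2-fold: SLC39A13, SLC6A2, SLC16A1, SLC35G2, SLC16A6, SLC5A5 and SLC2A12. Without Jerome only SLC16A1 did, and without Sadie SLC39A5, SLC38A5 and SLC19A3 did.

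**Figure D5:**
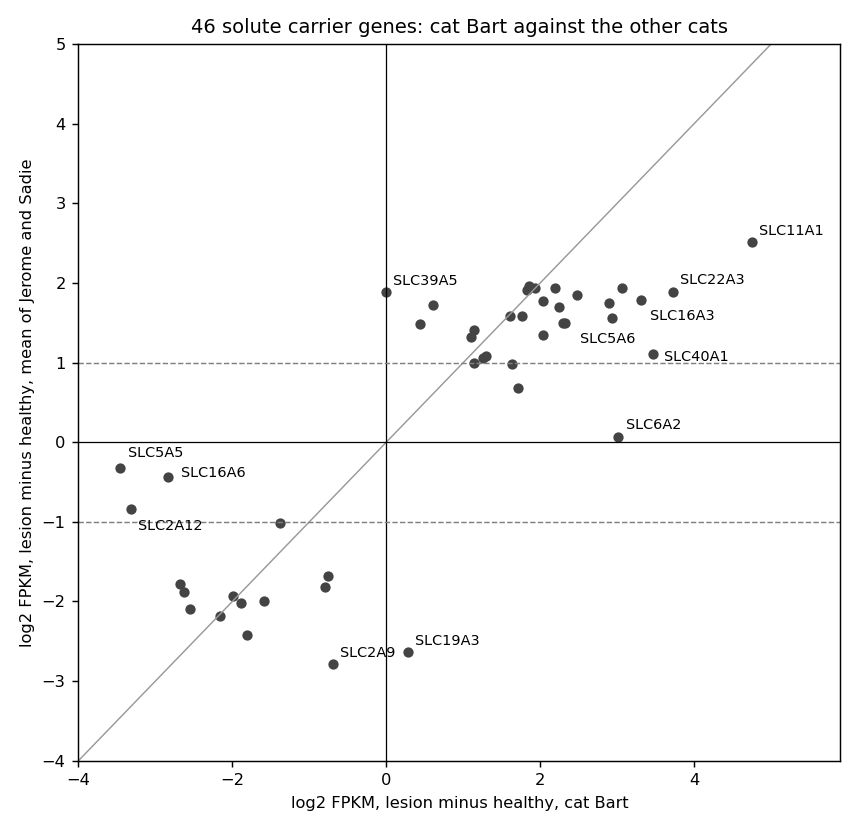
Log2 difference between lesion and healthy mucosa in Bart (x axis) against the mean of that in Jerome and Sadie (y axis), 1 point for each of the 46 genes, with the line of equality and dashed lines at 2-fold. SLC11A1, SLC22A3 and SLC40A1 lie far to the right of the line, SLC6A2 is near 0 on the y axis (0.07), and SLC19A3 is the only gene whose signs differ between Bart (0.28) and the mean of the others (-2.64).

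Whether the level of a solute carrier differed between cats, both tissues combined, is a separate measure that the choice of genes did not use. In limma's moderated F test over the cat terms, with tissue in the fit, 0 of the 44 tested solute carriers passed after adjustment over all identifiers, where 0.0075% (1 of 13327) did. At an unadjusted p under 0.05, 13 solute carriers passed, against 20.7% of all identifiers (2765). The lowest were SLC5A9, SLC16A1, SLC37A1 and SLC6A20, with unadjusted limma values of 0.00056, 0.0047, 0.0071 and 0.014, and the lowest of all, that of SLC5A9, became 0.14 after adjustment. In SLC5A9, SLC37A1 and SLC6A20 Bart was lowest in both tissues, and in SLC16A1 Bart was highest in both. Of the 13, the level was highest in Bart in 6, in Jerome in 4 and in Sadie in 3. A difference between cats was thus not detected after adjustment in any solute carrier with 6 libraries.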

How the data were processed

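Poly(A) RNA of 6 biopsies was sequenced from strand-specific libraries (the labels and the paper differ on read length and on single or paired reads). The authors deposited FPKM values per Ensembl identifier, made with Cuffnorm, which divides by transcript length and library size. Besides Cuffnorm, the submitters' notes list HISAT, Cufflinks and bcl2fastq. Versions, genome build and annotation: not given in the sources used here. The FPKM values carry no read totals, so precision from depth is unknown, and an exact 0 (4688 to 4927 identifiers per library) can be a failed estimate.

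Symbols came from the study's table of genes at least 2-fold different. The floored values of each of 1981 rows matched exactly 1 identifier to 5 significant digits, and 5 symbols turned into dates were dropped. Of the 3897 tested identifiers at least 2-fold different, 1968 have no name, 528 of them below the lowest named difference of -2.38. The table's fold changes and the study's clusters were not used. Neighbours came from the cat RefSeq gene table (F.catus_Fca126_mat1.0), which holds 45 of the 46 symbols.

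The log2 was taken after a floor of 1 FPKM, so a fold change of a low gene is understated. A two-sided limma test (version 3.58.1, R 4.3.3) compared the tissues, without further terms, in the 13327 identifiers that reached 1 FPKM in 3 or more of 6 libraries, with a trend of the variance and Benjamini-Hochberg adjustment at 0.05. A moderated F over the cat terms, with tissue in the fit, compared the cats. Both were also run on simulated data, with results not given here. Joins ran in pandas 2.3.3 and numpy 2.4.6 under Python 3.11.15, and plots were drawn with matplotlib 3.10.9. Alternatives were other pseudocounts, scalings and filters, no trend, the cat as a block, and leaving out libraries or cats. Between tissues the main test left out the pairing by cat, which only the block uses. For a pathway gene given with its p-value, the value with the block is added where it changed the call. Per the labels both biopsies of a pair came from 1 animal, and deviations from the tissue means correlated within cats at 0.49 (Bart), 0.20 (Jerome) and 0.41 (Sadie), and at -0.44 to 0.27 between cats. P-values measure the spread between these 3 cats.

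The members, substrate groups and lists were chosen with earlier results of these data known. Values in every library are given for up to 4 genes a substrate group with the largest mean difference, and up to 4 named genes a pathway list. GLUL, ENO1 and the CSF3R values were added after they were seen. Marker sums hold only markers with a name, each of which differed at least 2-fold between the tissues. Of the remaining marker lists, sums in healthy mucosa and then in lesions ran from 32.7 to 290 and 436 to 2677 FPKM (B and plasma cell, 8 of 12 named), 69.3 to 194 and 251 to 707 FPKM (T cell, 10 of 10), 68.8 to 147 and 197 to 606 FPKM (fibroblast, 2 of 10), 5724 to 41379 and 2007 to 16123 FPKM (neutrophil, 3 of 8, nearly all S100A8), and 108 to 2162 and 14.3 to 2616 FPKM (squamous epithelium, 4 of 34, led by KRT4, listed at 0 in the healthy mucosa of Jerome and Sadie).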

Additional observations from a re-analysis of the deposited data

How the results depend on the processing

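The counts of solute carriers that passed limma between tissues, 15 higher and 5 lower, depended on the fit. With the cat as a replicate block they were 25 and 10, without a filter on low values 1 and 1 (98 and 143 of 21529 identifiers in all, a larger number tested), and with libraries rescaled to the same sum 14 and 8. Leaving out 1 library or 1 cat gave 0 to 15 higher and 0 to 12 lower. Both counts were 0 without the healthy library of Jerome, either library of Sadie, both libraries of Jerome or both of Sadie. There 24 to 34 members had an unadjusted limma p under 0.05. Nothing is read from that, since the same contrast chose the genes. Without the healthy library of Bart the counts after adjustment were 6 and 6, without the lesion library of Jerome 3 and 4, and without both libraries of Bart 15 and 12. In those fits 2 libraries stand for a tissue. The cause of these shifts was not tested. The number of solute carriers that differed between cats was 0 in all alternatives run (7 to 14 at an unadjusted p under 0.05). Those with no overlap numbered 33 to 41 (34 as reported) and those with one direction 43 to 44 (43). The 41 came without both libraries of Bart, where 2 values stand for each tissue and separate more easily. Over 44 genes and 13 alternatives, 572 values in all, 0 changed sign, 529 moved by less than the SD over cats and 43 by more. Since every gene was chosen for a difference of at least 2-fold in these libraries, a change of sign was unlikely from the start. The block also raised the number of cell markers that passed as higher, from 1 to 10 (T cell), 4 to 11 (endothelium), 3 to 8 (B and plasma cell), 6 to 8 (macrophage and monocyte), 1 to 2 (neutrophil) and 0 to 2 (fibroblast). Over all identifiers the block raised the share that passed as higher from 5.31% to 12.2%. Nothing is read from the marker counts, since a marker has a name only if it differed at least 2-fold between the tissues. Rescaling and quantile normalization put the median of all tested identifiers at 0.01 and -0.04.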
